A study of Homo sapiens with 4 samples.

Results

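The 10 genes described here are the angiomotins AMOT, AMOTL1 and AMOTL2, the coactivators YAP1 and WWTR1 (the gene of TAZ), the DNA-binding factors TEAD1, TEAD2, TEAD3 and TEAD4, and CCN1, a secreted matrix protein whose gene YAP and TEAD factors are known to drive. They were taken by symbol from a table of 35606 genes, in which each symbol had exactly 1 row. They were chosen by gene family with the JAZF1-SUZ12 against mock counts and fold changes of this table in view, so every difference between the groups is given for these 10 genes as a description, with no test. The samples were K562 cells, an established human line from chronic myelogenous leukaemia that keeps erythroid traits, in 2 groups of 2 libraries. In 1 group the cells expressed JAZF1-SUZ12, the fusion of JAZF1 with the Polycomb protein SUZ12 that occurs in endometrial stromal sarcoma. The other group were mock cells. The labels name no clone, vector, dose or time, and nothing says that the 2 libraries of a group came from separate cultures, so their spread may be technical. Poly(A)-selected RNA was sequenced with a directional kit, per the labels' protocols.

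In the Hippo pathway a kinase cascade phosphorylates YAP and TAZ and keeps them out of the nucleus. When the cascade is off, YAP and TAZ enter the nucleus, bind TEAD factors on DNA and switch on target genes. Angiomotins are junction-associated scaffold proteins that bind YAP and TAZ through short proline-rich motifs and hold them in the cytoplasm or at junctions, and AMOTL2 is itself a known target gene of YAP. The pathway is best known from adherent epithelial and mesenchymal cells. Blood cells generally make little YAP and TAZ.

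The libraries held between 17260940 and 24423038 counts. JAZF1 counts were 12 and 27 in mock cells but 574 and 731 with the fusion, in the direction the labels give. All 10 erythroid markers examined, among them GATA1 and the fetal globins, had more than 3 counts in every library, and their summed level was 8888 and 8603 CPM (counts scaled to 1000000 per library) in mock and 10321 and 10227 CPM in JAZF1-SUZ12 libraries. The source label of every sample is uterus, but of 8 endometrial stromal and fibroblast markers LUM had 0 counts in every library, 4 to 6 had more than 3 counts, and all 8 summed to between 4.23 and 7.13 CPM. Of 5 endothelial markers TEK had 0 counts in every library, and the 5 summed to 8.56 and 12.7 CPM in mock and 14.5 and 13.6 CPM in JAZF1-SUZ12 libraries. The 6 epithelial markers were all above 3 counts, with KRT8 and KRT18 leading and CDH1 at no more than 9, and summed to 1489 and 1463 CPM in mock and 1567 and 1555 CPM in JAZF1-SUZ12 libraries. Of 3 lymphoid markers MS4A1 had 0 counts in every library, and the 3 summed to between 4.17 and 6.22 CPM. The sums of all lists but the lymphoid one were higher in both JAZF1-SUZ12 libraries than in either mock library, and their part in the results below was not tested.

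The promoter sequences are shown for AMOTL2, the member that differed most between the groups, for AMOTL1, its abundant paralog, and for YAP1, the only other member whose window held the TEAD motif. RefSeq (GRCh38.p14) gave windows of 250 bases before to 50 bases after a start site for 7 of the 10 members, and TEAD1, TEAD4 and CCN1 had no entry. Each line gives the 250 bases before the start, 5′ to 3′ on the gene's strand, with capitals marking the core of the TEAD motif, CATTCC or its reverse complement GGAATG.
AMOTL2 (chr3:134374448-134374697, minus strand): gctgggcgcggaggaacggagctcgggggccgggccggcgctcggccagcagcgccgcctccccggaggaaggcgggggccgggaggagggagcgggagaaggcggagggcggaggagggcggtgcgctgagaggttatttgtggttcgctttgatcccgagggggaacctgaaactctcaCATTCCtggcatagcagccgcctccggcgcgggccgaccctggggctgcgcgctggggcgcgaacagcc
AMOTL1 (chr11:94768106-94768355, plus strand): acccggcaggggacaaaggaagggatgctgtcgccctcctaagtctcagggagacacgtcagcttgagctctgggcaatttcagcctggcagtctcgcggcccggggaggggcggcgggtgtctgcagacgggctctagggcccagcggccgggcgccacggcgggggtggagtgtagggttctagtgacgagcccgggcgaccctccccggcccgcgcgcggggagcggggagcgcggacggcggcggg
YAP1 (chr11:102110197-102110446, plus strand): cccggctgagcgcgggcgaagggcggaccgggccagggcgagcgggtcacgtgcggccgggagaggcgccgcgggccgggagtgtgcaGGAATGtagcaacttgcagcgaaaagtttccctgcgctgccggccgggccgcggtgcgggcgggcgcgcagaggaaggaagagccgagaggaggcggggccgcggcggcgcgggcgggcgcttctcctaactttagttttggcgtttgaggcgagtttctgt

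The TEAD core was found on either strand in 2 of the 10 windows of the 7 members, once in AMOTL2, with its first base at -69 from the start, and once in YAP1, at -162. It was found in 14.03% of all 35116 windows of the same length. AMOTL1, AMOT, WWTR1, TEAD2 and TEAD3 had no match in their windows. The AP-1 motif TGANTCA was in none of the 10 windows, against 7.71% of all windows. The GATA motif AGATAA was in 1 of them, the more upstream of 2 windows of WWTR1, against 10.3% of all windows. No match of one motif overlapped a match of another, and a match is only a match of letters.

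The windows also differed in CpG dinucleotides, the sites of DNA methylation that are dense in CpG islands. The window of 300 bases held 37 CpGs at the AMOTL2 start shown, 40 at YAP1, 33 at AMOTL1, 44 at TEAD3 and 23 at AMOT, against a median of 14 over all windows. WWTR1 held 18 and 1 in its 2 windows and TEAD2 held 14 and 19. AMOTL2 has a further RefSeq start farther upstream, whose window held 1 CpG and no TEAD core. Nearly silent members (AMOT, AMOTL2 and YAP1 in mock cells) and transcribed ones (AMOTL1 and TEAD3) were thus both found among the CpG-rich windows.

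Read counts sorted the members into abundant and nearly absent genes. To compare genes, counts were divided by the length of the longest annotated transcript and scaled to a sum of 1000000 per library, and these levels are used wherever genes are set against each other. In mock libraries the level was 46.8 ± 2.87 for AMOTL1, 43.8 ± 1.98 for TEAD4, 22.2 ± 0.278 for TEAD2, 14.8 ± 0.640 for TEAD3, 9.44 ± 0.262 for TEAD1 and 1.92 ± 0.0475 for CCN1 (SD, n = 2 each). YAP1 followed at 0.107 ± 0.0888, WWTR1 at 0.0804 ± 0.0799, AMOTL2 at 0.0127 ± 0.0179 and AMOT at 0 (SD, n = 2 each). The values of AMOTL1 and TEAD4 overlapped between libraries, as did those of neighbours among the last 4 genes, so these neighbours are not ordered by the data. With the median transcript length in place of the longest, AMOTL1 and TEAD4 remained first and CCN1 sixth, TEAD1 moved ahead of TEAD2 and TEAD3, and WWTR1 moved ahead of YAP1. Of 35410 genes with a length, 3513 had a higher mock level than AMOTL1 and 17959 a higher one than YAP1.

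**Figure D1:**
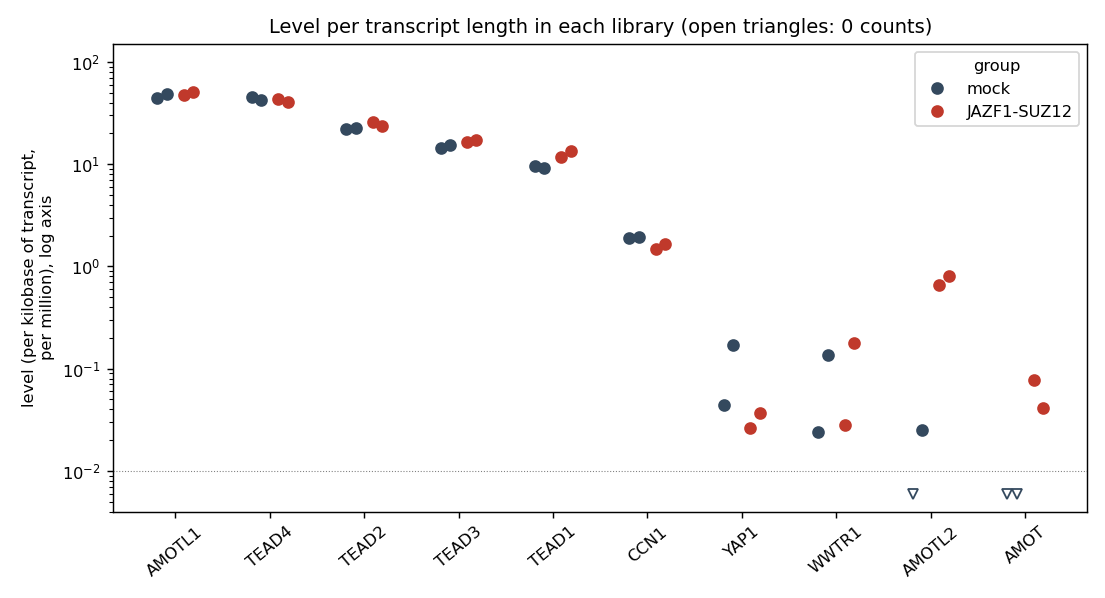
Level of each member per kilobase of its longest transcript, scaled to 1000000 per library, on a log axis, in each mock and JAZF1-SUZ12 library (points), with open triangles for libraries with 0 counts. AMOTL1, the TEAD factors and CCN1 sit above 1 in every library, whereas YAP1 and WWTR1 stay at 0.179 or below in all 4. AMOTL2 is among the last 4 genes in mock libraries, whose neighbours overlap, and in seventh place in JAZF1-SUZ12 libraries.

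The family sums show how uneven the pathway was in these cells. The 4 TEAD factors summed to a level of 90.3 ± 1.33 in mock and 96.4 ± 1.70 in JAZF1-SUZ12 libraries, and the angiomotins to 46.8 ± 2.89 and 49.8 ± 2.25 (SD, n = 2 each). With the median transcript length, AMOTL1 alone was at 188 in mock, and TEAD4 was at 39.3, TEAD1 at 12.1, TEAD2 at 11.6 and TEAD3 at 6.21. Which of the TEAD and angiomotin sums is higher therefore depends on the transcript length used. YAP1 and WWTR1 together reached 0.188 ± 0.169 in mock and 0.135 ± 0.115 in JAZF1-SUZ12 libraries (SD, n = 2 each), from 3 to 14 counts in a mock library and 2 to 11 in a JAZF1-SUZ12 library. In bulk RNA, transcription in few cells and low transcription in all cells cannot be told apart.

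AMOTL2 was nearly silent in mock cells and was counted in both JAZF1-SUZ12 libraries. AMOTL2 (ENSG00000114019; GRCh38 chromosome 3, 134355874 to 134375479, minus strand) was counted 0 times and 1 time in mock, against 21 and 36 times with the fusion. Its CPM was 0 and 0.0470 in mock and 1.22 and 1.47 in JAZF1-SUZ12 libraries, so the groups did not overlap. Summed over libraries and scaled by depth, the ratio was 57.1, with an exact 95% interval of 9.84 to 2294 that covers counting error only. Both mock libraries lay below the floor of 3 counts per library, so the size of this ratio is poorly known. The fitted log2 fold change was 5.48 ± 0.89 (SE, edgeR). It rests on the single mock count: without mock replicate 1 the log2 fold change was 4.65, and without mock replicate 2, which leaves 0 mock counts, AMOTL2 was at least 9.32-fold higher against a floor of 3 counts in the remaining library. Even in JAZF1-SUZ12 libraries its level per kilobase, 0.725 ± 0.102 (SD, n = 2), stayed far below that of AMOTL1 at 49.0 ± 2.17 (SD, n = 2). RPL39P5, a pseudogene on the same strand that overlaps the 3′ end of AMOTL2, had at most 2 counts in a library.

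AMOTL1 made up nearly the whole of the angiomotin level. AMOTL1 (ENSG00000166025; chromosome 11, 94706431 to 94876753, plus strand) had 3347 and 3819 counts in mock and 3031 and 4527 in JAZF1-SUZ12 libraries, or 164 and 179 CPM against 176 and 185 CPM. The groups overlapped, and the log2 fold change was 0.05 ± 0.05 (SE, edgeR), changing sign to -0.02 without mock replicate 1. AMOTL1 held 100% and 99.9% of the angiomotin level of the mock libraries and 98.5% and 98.4% of that with the fusion, where AMOTL2 held 1.35% and 1.55%.

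AMOT, the founding angiomotin, was at the limit of detection. AMOT (ENSG00000126016; chromosome X, 112774503 to 112840815, minus strand) had 0 counts in both mock libraries but 4 and 3 with the fusion. JAZF1-SUZ12 replicate 2 lay at the floor of 3 counts per library, so no fold is given, and AMOT did not pass the filter on low counts.

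**Figure D2:**
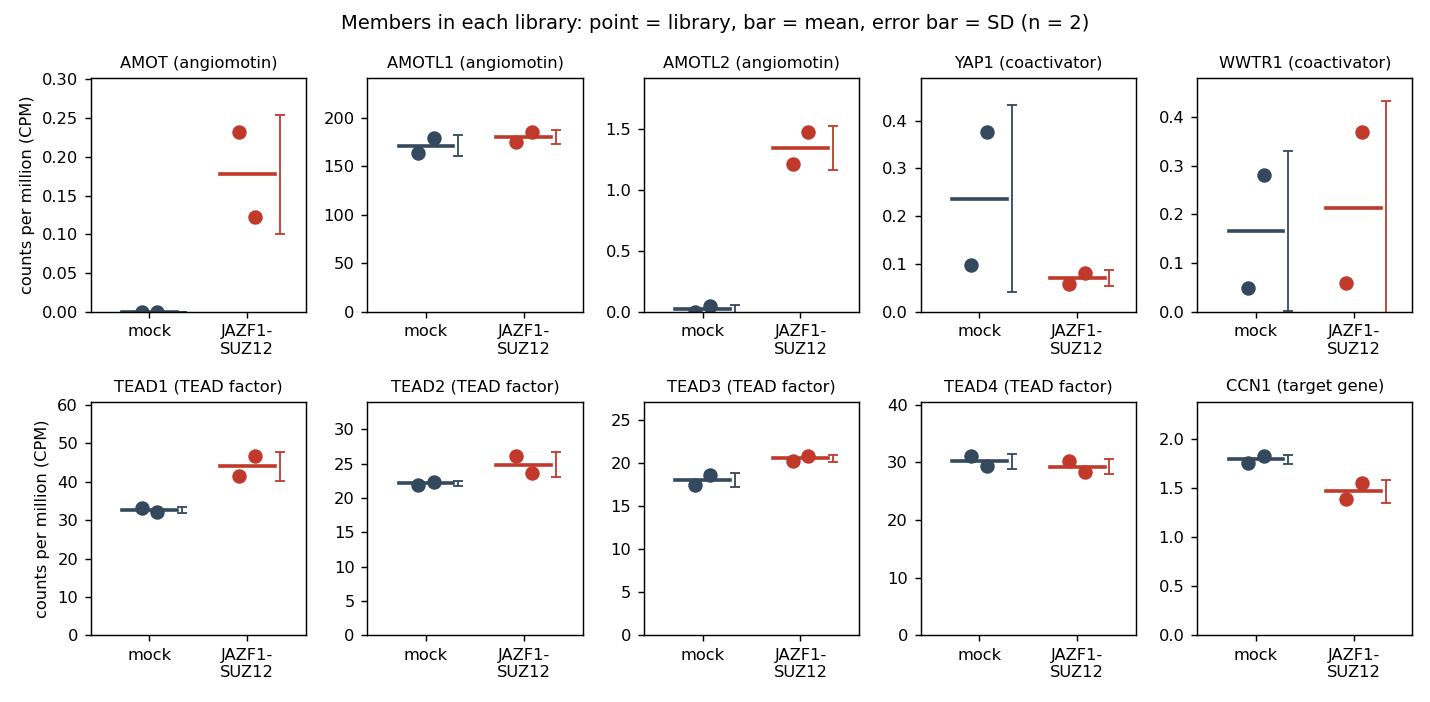
CPM (counts scaled to 1000000 per library) of each member in mock and JAZF1-SUZ12 libraries, each panel on its own linear axis from 0, with points for libraries, bars for means and error bars for the SD (n = 2; cut at 0). AMOTL2 lies at 0.0470 CPM or below in mock and at 1.22 CPM or above with the fusion, TEAD1 at 33.3 CPM or below and at 41.4 CPM or above, whereas AMOTL1, TEAD4 and WWTR1 overlap between groups.

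The coactivators were close to the limit of detection in both groups. YAP1 (ENSG00000137693; chromosome 11, 102110461 to 102233423, plus strand) had 2 and 8 counts in mock and 1 and 2 in JAZF1-SUZ12 libraries, or 0.0978 and 0.376 CPM against 0.0579 and 0.0819 CPM. The groups did not overlap, but the ratio of JAZF1-SUZ12 to mock was 0.300 with an exact 95% counting interval of 0.0531 to 1.17, which includes equal levels. WWTR1 (ENSG00000018408; chromosome 3, 149517235 to 149736714, minus strand) had 1 and 6 counts in mock and 1 and 9 in JAZF1-SUZ12 libraries. These groups overlapped, with a ratio of 1.43 and an interval of 0.492 to 4.43. In both groups replicate 1 had the fewer WWTR1 counts. Both intervals cover counting error only, and no direction is read for either coactivator at this depth.

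TEAD1 was the TEAD factor that differed most between groups. TEAD1 (ENSG00000187079; chromosome 11, 12674591 to 12944483, plus strand) had 680 and 684 counts in mock and 715 and 1141 in JAZF1-SUZ12 libraries. This was 33.3 and 32.1 CPM in mock against 41.4 and 46.7 CPM, so both JAZF1-SUZ12 libraries were higher. The log2 fold change was 0.41 ± 0.08 (SE, edgeR), a difference of 33.3%, and it lay between 0.33 and 0.48 when 1 library was left out. TEAD1 made up 10.6% and 10.4% of the summed TEAD level in mock cells and 12.1% and 14.2% of it with the fusion.

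TEAD2 and TEAD3 lay slightly higher in both JAZF1-SUZ12 libraries than in either mock library. TEAD2 (ENSG00000074219; chromosome 19, 49340595 to 49362457, minus strand) was at 21.9 and 22.4 CPM in mock and 26.1 and 23.6 CPM in JAZF1-SUZ12 libraries, from 448, 477, 451 and 576 counts. Its log2 fold change was 0.14 ± 0.09 (SE, edgeR), and leaving out 1 JAZF1-SUZ12 library gave 0.05 (replicate 1) or 0.23 (replicate 2). TEAD3 (ENSG00000007866; chromosome 6, 35473597 to 35497076, minus strand) was at 17.5 and 18.6 CPM in mock and 20.3 and 20.8 CPM in JAZF1-SUZ12 libraries, from 357, 397, 350 and 509 counts. Its log2 fold change was 0.17 ± 0.10 (SE, edgeR). TEAD2 overlaps the genes CD37 and DKKL1 on the opposite strand, which had 188 to 244 and 7 to 24 counts, and nothing states whether strand was used in counting.

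TEAD4, the most abundant TEAD factor, overlapped between groups. TEAD4 (ENSG00000197905; chromosome 12, 2959330 to 3040673, plus strand) had 636 and 624 counts in mock and 521 and 692 in JAZF1-SUZ12 libraries, or 31.1 and 29.3 CPM against 30.2 and 28.3 CPM. Its log2 fold change was -0.07 ± 0.08 (SE, edgeR).

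CCN1 (ENSG00000142871; chromosome 1, 85580761 to 85583962, plus strand) had few counts in both groups. It had 36 and 39 counts in mock and 24 and 38 in JAZF1-SUZ12 libraries, or 1.76 and 1.83 CPM against 1.39 and 1.56 CPM. The groups did not overlap. The log2 fold change was -0.30 ± 0.36 (SE, edgeR), and the ratio of summed counts was 0.828 with an exact 95% counting interval of 0.582 to 1.17, which includes equal levels. The same interval was 1.02 to 1.09 for AMOTL1, whose groups overlapped. It was 1.27 to 1.46 for TEAD1, 1.02 to 1.22 for TEAD2, 1.03 to 1.26 for TEAD3 and 0.890 to 1.04 for TEAD4. Such an interval covers counting error only, so it cannot decide whether the groups differ.

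**Figure D3:**
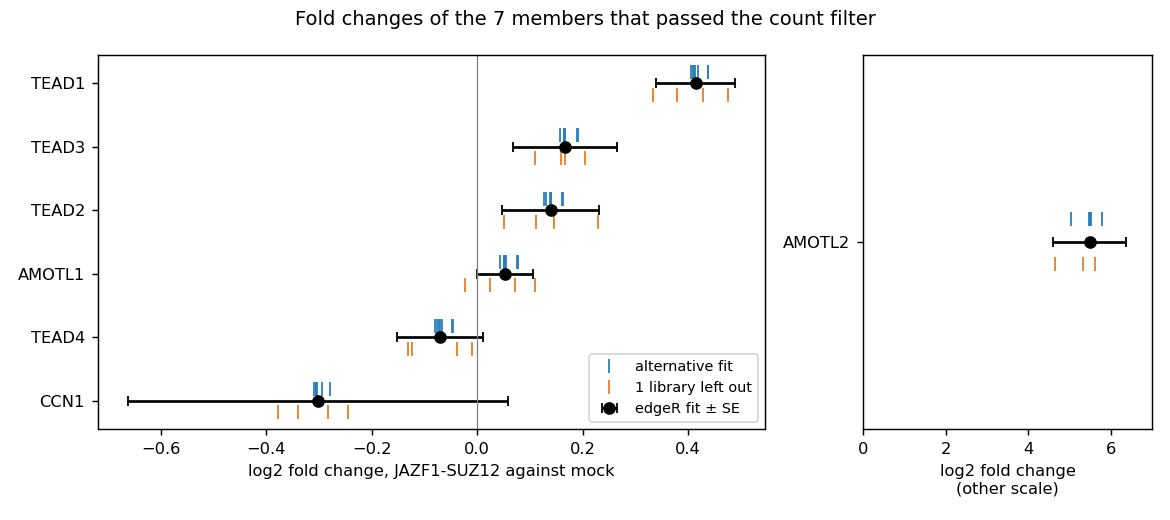
Log2 fold change, JAZF1-SUZ12 over mock (edgeR, black points, bars for the standard error) for the 7 members that passed the count filter, with blue ticks for alternative fits, orange ticks for fits that leave out 1 library, and AMOTL2 on an axis of its own. TEAD1 stays between 0.33 and 0.48 and AMOTL2 between 4.65 and 5.79 over the ticks, while AMOTL1 falls on both sides of 0. AMOTL2 has no tick for the fit without mock replicate 2, which leaves 0 mock counts.

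Over all members, 7 of 10 passed edgeR's filter on low counts, AMOTL2 only through the JAZF1-SUZ12 libraries, and AMOT, YAP1 and WWTR1 did not. AMOTL2 and TEAD1, 2 of the 7, were past an adjusted p of 0.05, where 24.7% of all 14750 genes tested were. Groups did not overlap for 7 of the 10 members and for 5 of the 7 that passed the filter, against 61.0% of all genes tested. Since the members were listed with this comparison known, these counts are given without a reading. The median log2 fold change of the 7 was 0.14, beside 0.0032 over all genes tested.

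Other genes of the pathway were taken from 4 lists drawn from general knowledge of the pathway. The lists were not built from how their genes moved, but they were chosen with earlier results of these data known. Each gene was tested with edgeR's quasi-likelihood test and Benjamini-Hochberg adjustment over all genes tested. In all, 88 of 102 genes could be tested. The target genes DOCK5 and MYOF passed the count filter only through their JAZF1-SUZ12 libraries. Of the 88, 13 rose and 5 fell, or 20.5% called, beside 24.7% of all genes tested. Of these 18 calls, 8 kept their side of the threshold under every alternative fit and with each library left out.

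The share of kinase cassette genes called, 25%, was close to the 24.7% of all genes tested. Of 24 kinases, adaptors and upstream regulators, all were tested, 2 rose, 4 fell and 18 did not pass, with a median log2 fold change of -0.06. For the whole transcriptome the shares past the threshold were 13.3% higher and 11.4% lower. RASSF5, a Ras-association protein that binds the Hippo kinases, fell to 55.4 ± 2.85 CPM from a mock level of 68.8 ± 0.258 (SD, n = 2 each). On the log2 scale this was -0.33 (edgeR, adjusted p = 0.000983). NF2, or merlin, an upstream activator of the cascade, fell by 0.24 on the log2 scale (edgeR, adjusted p = 0.0279), TAOK3 by 0.21 (edgeR, adjusted p = 0.0146) and RASSF1 by 0.21 (edgeR, adjusted p = 0.0487). WWC1, the scaffold known as KIBRA, rose to 1.94 ± 0.201 CPM from a mock level of 0.693 ± 0.149 (SD, n = 2 each), or by 1.45 on the log2 scale (edgeR, adjusted p = 0.0223), and the LATS cofactor MOB1B rose by 0.17 (edgeR, adjusted p = 0.0433). Of these 6, only RASSF5 stayed past the threshold in every fit, and with DESeq2 2 of the list were called. MAP4K4 and MOB1A, the genes of the list with the highest CPM among those that did not pass, had log2 fold changes of 0.08 and -0.06 (edgeR, adjusted p = 0.228 and 0.451).

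No tested regulator of YAP and TAZ passed the test in the fit to all libraries. The list holds TEAD cofactors, LIM proteins, ubiquitin ligase subunits, tankyrases and the phosphatase complex that acts on Hippo kinases, and 29 of its 31 genes were tested. None was called by edgeR, DESeq2 or limma-voom, whereas edgeR called 24.7% of all genes tested. With edgeR 3 had an unadjusted p under 0.05, and the median log2 fold change was -0.03. YWHAZ and YWHAE, adaptor proteins that hold phosphorylated YAP in the cytoplasm, had the highest CPM of the list, with log2 fold changes of -0.06 and -0.04 (edgeR, adjusted p = 0.349 and 0.593).

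Junction and polarity genes, whose products include binding partners of angiomotins, were called mostly upward. Of 30 genes, 26 were tested, 7 rose, 1 fell and 18 did not pass, with a median log2 fold change of 0.09. This was 30.8% called, beside 24.7% of all genes tested (13.3% higher and 11.4% lower). None of the 8 called genes changed at least 2-fold. The junction scaffolds MAGI3 and MAGI1 rose by 0.80 and 0.41 on the log2 scale (edgeR, adjusted p = 0.000912 and 0.00186), and the polarity protein PARD3 by 0.42 (edgeR, adjusted p = 0.000544). LLGL1, a basolateral polarity protein, rose by 0.25 (edgeR, adjusted p = 0.0219), but not past the threshold with DESeq2 (adjusted p = 0.144) or without JAZF1-SUZ12 replicate 2, mock replicate 1 or mock replicate 2, where its log2 fold change lay between 0.21 and 0.26. FAT1, an atypical cadherin, fell by 0.27 (edgeR, adjusted p = 0.0043). PARD3B and PARD6G were also called, both higher, and were singled out after their values were seen. PARD3B, at 0.44 on the log2 scale (edgeR, adjusted p = 0.0256), did not pass with DESeq2 (adjusted p = 0.113), without JAZF1-SUZ12 replicate 2 (0.25, adjusted p = 0.344) or without mock replicate 1 (0.40, adjusted p = 0.0688). PARD6G, at 0.78 (edgeR, adjusted p = 0.0411), did not pass with DESeq2 (adjusted p = 0.116) or without mock replicate 2 (0.36, adjusted p = 0.315). SCRIB and TJP1 had the highest CPM among the genes that did not pass, at log2 fold changes of -0.04 and 0.05 (edgeR, adjusted p = 0.661 and 0.602).

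In a signature of YAP and TAZ target genes, 4 genes were called and each was higher in JAZF1-SUZ12 libraries. Of the 20 genes of a published signature left after AMOTL2 and CCN1, 12 were tested, 4 rose, none fell and 8 did not pass, with a median log2 fold change of 0.48. DOCK5 and MYOF, among the 4 that rose, passed the count filter only through their JAZF1-SUZ12 libraries. They could hardly have been called lower, and they raise the median. The transcriptome-wide shares were 13.3% upward and 11.4% downward, and of the 837 called with at least a 2-fold change 819 were higher, so a called gene with a large change was mostly a higher one throughout the transcriptome. ARHGEF17, a guanine nucleotide exchange factor, rose to 6.24 ± 0.431 CPM from a mock level of 0.817 ± 0.159 (SD, n = 2 each), with 19 and 15 counts in mock and 113 and 145 with the fusion. On the log2 scale it rose by 2.90 (edgeR, adjusted p = 2.21e-06). CCDC80, a matrix protein, rose to 13.0 ± 0.479 CPM from a mock level of 7.13 ± 0.714 (SD, n = 2 each; edgeR, adjusted p = 0.000532).

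DOCK5 and MYOF rose from few counts, and neither would have passed the count filter on its mock libraries alone. MYOF had 0 mock libraries above the filter's cut and DOCK5 had 1, while both genes had 2 JAZF1-SUZ12 libraries above it. DOCK5, an activator of Rac, had 13 and 8 counts in mock and 43 and 39 in JAZF1-SUZ12 libraries, or 1.97 higher on the log2 scale (edgeR, adjusted p = 0.00749), and did not pass without JAZF1-SUZ12 replicate 1 (adjusted p = 0.0841). MYOF, a membrane repair protein, had 5 and 1 counts in mock and 31 and 14 in JAZF1-SUZ12 libraries, or 2.92 higher on the log2 scale (edgeR, adjusted p = 0.0141). MYOF did not pass without JAZF1-SUZ12 replicate 1 (log2 fold change 1.91, adjusted p = 0.261) or without mock replicate 2 (2.18, adjusted p = 0.0904). GADD45A and ASAP1, the genes of the signature with the highest CPM among those that did not pass, had log2 fold changes of 0.13 and 0.02 (edgeR, adjusted p = 0.0979 and 0.854). GADD45A passed with total counts only, with a filter of at least 50 counts on average and without JAZF1-SUZ12 replicate 2 (edgeR, adjusted p = 0.0435, 0.0374 and 0.0318).

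The best-known targets beside CCN1 were hardly counted. CCN2 had 1 count in 1 JAZF1-SUZ12 library and 0 in the others, and ANKRD1 had 0 counts in every library, which allows up to 0.123 CPM in the deepest and 0.174 CPM in the shallowest library. Both were singled out after their values were seen.

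**Figure D4:**
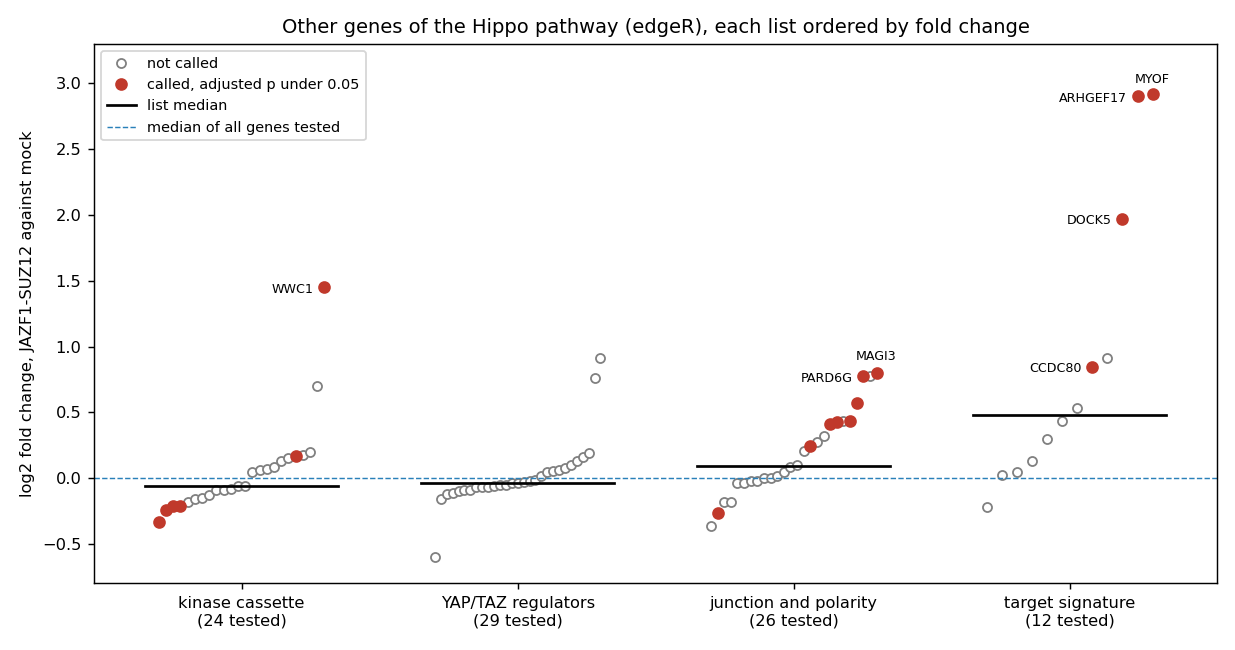
Log2 fold change, JAZF1-SUZ12 over mock (edgeR), for each tested gene of the 4 pathway lists, ordered within a list, with filled points for genes past an adjusted p of 0.05, open points for the others, a bar for the list median and a dashed line for the median of all genes tested. The list medians are -0.06, -0.03, 0.09 and 0.48 from left to right, and no YAP/TAZ regulator is filled. The last median includes DOCK5 and MYOF, which passed the count filter only through their JAZF1-SUZ12 libraries.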

How the data were processed

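RNA from K562 cells was sequenced in 2 JAZF1-SUZ12 and 2 mock libraries. The authors deposited estimated counts per gene, not normalized, of which 29.9% to 33.6% in a library were not whole (by more than 1e-06). The submitters' processing notes name fastp 0.20.1, FastQC 0.11.7, MultiQC 1.5, kallisto 0.46.2, DESeq2 1.30.1 and hg38, with no role or order, and the annotation is not given in the sources used here. The authors also deposited their own comparison, with mean signal, log2 fold changes, a test score and p-values, per the file headers.

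Counts were rounded and assigned to libraries by title. Genes were kept with filterByExpr, scaled by TMM and compared with the quasi-likelihood test of edgeR 4.0.16 (R 4.3.3), the design holding group alone, two-sided, at a Benjamini-Hochberg adjusted p of 0.05 over 14750 genes. The standard error is the log2 fold change divided by the square root of F. In simulated data for this comparison, 200 of 200 genes changed 2-fold were recovered among 14501 genes tested, with 12 false calls. The changed genes were drawn only from the more abundant genes, and all genes were given the same dispersion. Recovery was therefore not simulated for genes with counts as low as those of AMOTL2, CCN1, WWC1, PARD6G, ARHGEF17, DOCK5 and MYOF. CPM scales each library to 1000000 counts. Positions and lengths are those of GENCODE 29, which matched 35410 genes. Ratio intervals are exact (Clopper-Pearson on the split of summed counts), and at most 3 counts were taken as the floor. The reads carry no stated molecular identifiers.

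The members and lists were chosen with earlier results of these data known. The rule for named genes took all members, JAZF1, and from each list up to 6 called genes with the smallest p and up to 2 not called with the highest CPM. PARD3B, PARD6G, CCN2, ANKRD1, the VGLL genes, LATS1 and LATS2 were added after their values were seen, and marker genes and genes that overlap a member are named outside the rule. A called gene of the junction and polarity list is counted but not reported by name here. Alternatives were other scalings, DESeq2 1.42.0, limma-voom (limma 3.58.1), other filters and thresholds, the replicate block, another transcript length and leaving out each library.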

Additional observations from a re-analysis of the deposited data

How the results depend on the processing

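The number of genes called, 3643, of which 1955 were higher and 1688 lower, became 2407 with DESeq2 (1051 lower), 2045 at an adjusted p under 0.01 (1255 higher, 790 lower) and 837 with at least a 2-fold change (819 higher, 18 lower). The thresholds reduce the counts by construction, and for DESeq2 the cause was not tested. Called genes of the kinase cassette numbered 6, and 2, 1 and 1 under those same settings, and called junction and polarity genes numbered 8, and 5, 5 and 0. With 1 library left out, where edgeR pools the spread and the lone library is assumed to vary like the other group, between 2568 and 3781 genes were called, 1498 to 1833 higher and 1070 to 1948 lower. The lists then had 2 to 5 (kinase cassette), 0 to 2 (YAP/TAZ regulators), 6 to 8 (junction and polarity) and 2 to 5 (target signature) called genes. A block for the replicate number gave 4061 called genes, and no call of the 18 list genes was lost. Libraries with the same replicate number showed no shared deviation (r = -0.00072 across genes between the deviations of the 2 groups). This cannot decide whether they were paired, since technical spread would also give a value near it. Among the members, AMOTL2 had a log2 fold change of 5.04 with limma-voom, and AMOTL1 ranged from -0.02 to 0.11 with 1 library left out. The fit that leaves out all genes under a mean of 50 counts holds neither AMOTL2 nor CCN1. The level of AMOTL1 per kilobase was 188 with the median transcript length. Coding lengths from protein sequences were not used here. Depth limits AMOT, YAP1, WWTR1 and AMOTL2, with at most 36 counts in a library.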

Other observations

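TEAD factors also bind VGLL proteins, cofactors that compete with YAP and TAZ, and these were chosen for a closer look after their values were seen. VGLL1 and VGLL2 had 0 counts in every library, and VGLL3 had 23 and 8 counts in mock and 17 and 38 in JAZF1-SUZ12 libraries. VGLL4, which is known as a repressor of TEAD activity, averaged 33.8 ± 1.38 CPM in mock cells and 37.5 ± 0.520 CPM with the fusion (SD, n = 2 each), 0.13 apart on the log2 scale (edgeR, adjusted p = 0.228). The LATS kinases were also looked at after their values were seen. LATS1 averaged 75.2 ± 3.42 CPM in mock cells and 67.1 ± 7.27 CPM with the fusion, and LATS2 6.82 ± 0.650 and 7.12 ± 0.814 CPM (SD, n = 2 each), and neither passed the test (edgeR, adjusted p = 0.0697 and 0.879).

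The authors' deposited table put AMOTL2 at 4.92 ± 1.75 and TEAD1 at 0.37 ± 0.17 (log2 fold change and its standard error), where the counts gave 5.48 and 0.41. For JAZF1 the authors' deposited table gave a mean of 602 and a log2 fold change of 6.82, whereas the deposited counts had a depth-scaled mean of 339 and a log2 fold change of 5.05 (edgeR). For WWTR1 the authors' deposited table gave -1.46 with a standard error of 1.90, whereas the deposited counts were, as CPM, higher in JAZF1-SUZ12 libraries, with a ratio of 1.43. The authors' deposited table does not say how its values follow from the count table, and the cause of these differences was not tested.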
